A study of Mus musculus with 42 samples.

Results

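The 6 libraries described here were made from mice fed the AIN93G standard diet and killed at Zeitgeber time (ZT) 16 or ZT 20, with 3 mice at each time point, and were chosen by diet and time point from the 42 libraries of the study. All were female mice, C57BL/6 in the labels and C57BL/6NHsd in the study's methods, that started the diet at 3 weeks of age, ate it freely for 3 weeks, were housed in groups, and were 6 weeks old at collection. In AIN93G, 16% of the energy came from fat. With lights on from ZT 0 until ZT 12, both time points lay in the dark phase, when mice are active and eat. The study asked how a high-fat diet (HFD, 45% of energy from fat) alters daily rhythms of transcription in the liver during puberty; within it, the present comparison asked which transcripts differed between ZT 20 and ZT 16 on the standard diet. The 6 HFD libraries of the same time points and of the same age, sex, and strain served for comparison. Each library held the reads of poly(A) RNA of 1 mouse, counted per gene, with 16063034 to 21368409 counts in a library.

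Although the tissue was labelled as liver, these 6 libraries held transcripts of fat. Values are given as counts scaled to the depth of each library (CPM), which compare libraries for 1 gene and not genes with each other. Alb, the serum albumin made by hepatocytes, lay between 17.8 and 69.8 CPM, where the HFD libraries of both time points had at least 68220 CPM. Adipoq, the adipocyte hormone adiponectin, lay between 1326 and 2854 CPM, where those HFD libraries had at most 0.393 CPM. Lep, the fat-derived satiety hormone leptin, was present in all 6 libraries at 403 to 2122 CPM. All 6 had Alb under 100 CPM and Adipoq over 1000 CPM, but for 1 of them this depended on scaling. When all 42 libraries were scaled together, ZT 16 replicate 1 had 883.5 CPM of Adipoq and the other 5 stayed inside both limits. In the following, the libraries are called adipocyte-rich.

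White fat stores triacylglycerol, makes part of it from glucose by de novo lipogenesis when insulin is high, and releases fatty acids when food is absent. Like most tissues it carries a circadian clock, in which ARNTL (BMAL1) pairs with CLOCK or NPAS2 and binds E-boxes near the Per, Cry, and Rev-erb genes, whose products then repress that pair or the Arntl gene. Proteins of the PAR bZIP family, such as DBP, act through D-boxes, where NFIL3 opposes them, and the Rev-erb and ROR receptors compete for response elements of their own.

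Promoter sequence of clock genes is shown because clock proteins act through these 3 kinds of element. In RefSeq (GRCm38.p6), 22 of the 27 genes on the clock lists had a window from 250 bases before to 50 bases after a transcription start, in 33 windows. The E-box CACGTG, searched on both strands, was in 8 of these windows, of 7 genes (Bhlhe41, Ciart, Cipc, Cry1, Per1, Tef, and Tspan4), and in 7.15% of all 32851 windows. The D-box, spelled TTATGTAA or TTACGTAA, was in the window of Per3 only among the clock genes and in 1.06% of all windows. The receptor element TAGGTCA was in the windows of Arntl and Nfil3 and in 2.61% of all windows. None of the motifs contains another. A match describes letters and not binding. The 250 bases upstream of Cry1 (chr10:85185055-85185304, minus strand), Ciart (chr3:95882229-95882478, minus strand), Per3 (chr4:151044666-151044915, minus strand), and Nfil3 (chr13:52981040-52981289, minus strand) and a short stretch downstream of the start of Arntl (chr7:113207531-113207557, plus strand) are written from 5′ to 3′ of the gene, with the matches in capitals.
Cry1, E-box: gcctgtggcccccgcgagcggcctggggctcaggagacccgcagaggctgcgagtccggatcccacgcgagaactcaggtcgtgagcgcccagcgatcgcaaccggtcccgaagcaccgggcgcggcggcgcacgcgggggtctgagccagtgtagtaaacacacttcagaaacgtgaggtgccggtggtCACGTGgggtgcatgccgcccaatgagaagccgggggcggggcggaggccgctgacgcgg
Ciart, E-boxes: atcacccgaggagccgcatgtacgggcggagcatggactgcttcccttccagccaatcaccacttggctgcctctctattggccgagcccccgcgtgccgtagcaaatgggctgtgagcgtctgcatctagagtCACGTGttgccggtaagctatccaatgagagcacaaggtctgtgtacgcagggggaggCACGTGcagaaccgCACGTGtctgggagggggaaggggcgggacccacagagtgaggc
Per3, D-boxes: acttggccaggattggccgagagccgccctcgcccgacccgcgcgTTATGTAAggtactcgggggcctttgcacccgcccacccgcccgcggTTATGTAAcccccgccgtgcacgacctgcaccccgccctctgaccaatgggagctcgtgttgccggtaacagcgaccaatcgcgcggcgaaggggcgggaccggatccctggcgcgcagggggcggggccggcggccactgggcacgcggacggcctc
Nfil3, receptor element on the other strand: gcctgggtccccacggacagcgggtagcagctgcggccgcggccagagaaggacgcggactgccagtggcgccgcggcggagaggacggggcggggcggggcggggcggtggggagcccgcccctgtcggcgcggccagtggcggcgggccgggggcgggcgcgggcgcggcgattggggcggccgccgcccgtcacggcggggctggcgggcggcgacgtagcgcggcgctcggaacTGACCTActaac
Arntl, receptor element: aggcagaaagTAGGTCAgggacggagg

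The E-box of Cry1 began 60 bases before the start, and those of Ciart began at 116, 58, and 44 bases before it. The D-boxes of Per3 began 205 and 158 bases before the start. The receptor element of Arntl began at base 31 after the start, and that of Nfil3 lay 12 bases before the start on the opposite strand. The values of these genes are given with the other clock genes.

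The libraries differed in the transcripts of other cell types they held, by up to 76.25 times for lymphocytes and 188 times for skeletal muscle. In bulk tissue, fewer cells of a type and less RNA per cell cannot be told apart. The summed level of 28 lymphocyte genes was 2360, 49.3, and 1211 CPM in ZT 16 replicates 1 to 3 and 42.3, 30.95, and 732 CPM in ZT 20 replicates 1 to 3. Thus ZT 16 replicates 1 and 3 and ZT 20 replicate 3 were rich in lymphocyte transcripts, the other 3 libraries were poor in them, and the groups overlapped (exact permutation test, two-sided p = 0.2, where 0.1 is the smallest that 3 against 3 libraries allow). Glycam1, a mucin of high endothelial venules in lymph nodes, went with it, at 605, 0.0585, and 196 CPM at ZT 16 and 0, 0.117, and 117 CPM at ZT 20.

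Skeletal muscle transcripts set ZT 16 replicate 2 apart. Their summed level was 108, 6888, and 525 CPM at ZT 16 and 36.6, 39.8, and 225 CPM at ZT 20 (exact permutation test, p = 0.2). Simple epithelium of the mammary or a similar kind summed to 745, 1135, and 1217 CPM at ZT 16 and 250, 1878, and 785 CPM at ZT 20 (exact permutation test, p = 1), with ZT 20 replicate 1 lowest and ZT 20 replicate 2 highest. Epcam, a surface protein of epithelium, had between 10.4 and 105 CPM. Brown adipocyte genes summed to 855, 210, and 1256 CPM at ZT 16 and 379, 857, and 1567 CPM at ZT 20 (exact permutation test, p = 0.7). Ucp1, the uncoupling protein that defines brown fat, had 216, 7.19, and 304 CPM at ZT 16 and 26.0, 240, and 490 CPM at ZT 20, with low values in 1 library of each time point.

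Macrophage, endothelial, and mast cell genes varied less, with a highest library 1.69, 1.43, and 1.19 times the lowest. Fibroblast genes summed to between 6641 and 14930 CPM, highest in ZT 20 replicate 1. Basal and myoepithelial genes had 179 to 558 CPM, erythrocyte genes 70.4 to 256 CPM, keratinocyte genes 9.19 to 36.2 CPM, mesothelial genes 2.84 to 9.09 CPM, and genes of ovary, pancreas, and kidney 12.4 to 44.8 CPM. The hepatocyte list summed to 1255 to 2425 CPM, mostly from Hp and Cyp2e1, which fat expresses too. The summed adipocyte list was 48060, 57320, and 59380 CPM at ZT 16 and 80400, 73680, and 73970 CPM at ZT 20, so that the groups did not overlap and the mean at ZT 20 was 1.38 times that at ZT 16 (exact permutation test, p = 0.1). Fasn, which is also a lipogenic gene and is described with them, is on that list. Without Fasn the sums were 31450, 53940, and 46550 CPM at ZT 16 and 55460, 45070, and 49840 CPM at ZT 20, which overlapped, and the ratio of means was 1.14.

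**Figure D1:**
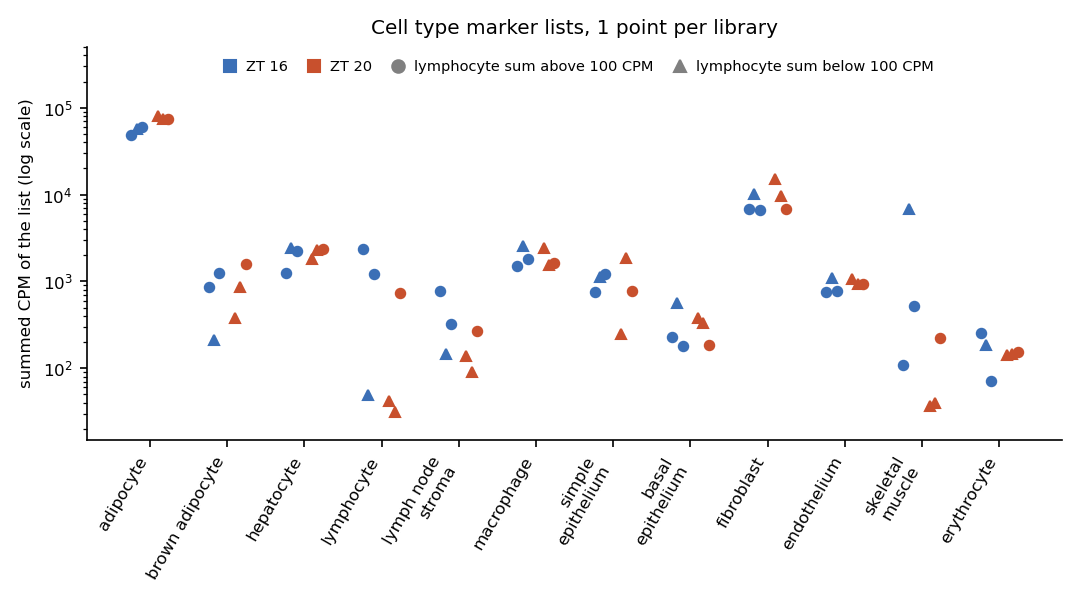
Summed CPM (log axis) of 12 lists of cell type genes in each of the 6 libraries, with ZT 16 in blue and ZT 20 in orange, circles for libraries with a lymphocyte sum above 100 CPM and triangles for those below. Lymphocyte genes ran from 30.95 to 2360 CPM and skeletal muscle genes from 36.6 to 6888 CPM, whereas the adipocyte sums lay within 48060 to 80400 CPM.

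Of 54532 genes in the table, 14016 had a mean count of at least 25 and were tested with edgeR. None reached an adjusted p under 0.05 in either direction (0% of the genes tested), and the lowest adjusted p was 0.157, for Dtx4. An unadjusted p under 0.05 was found for 742 genes with higher and 645 with lower values at ZT 20 (5.29% and 4.6%, together 9.9%). DESeq2 on the same counts called 94 genes higher and 62 lower (0.671% and 0.442%, together 1.11%). The CPM of 3 against 3 libraries did not overlap in 1301 genes that were higher and 1003 that were lower at ZT 20 (9.28% and 7.16%, together 16.4%). The biological coefficient of variation was 0.365. Therefore the values below are differences between 6 libraries of which edgeR called none, and apart from Dtx4, the genes named with an unadjusted p under 0.05 had an edgeR adjusted p between 0.487 and 0.497. All p-values measure the spread between these mice.

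Some clock genes stood near the front of the ranking by p. Of 26 tested, 6 were higher and 6 lower at ZT 20 without overlap of the libraries, and 14 overlapped. That is to be read against the 9.28% and 7.16% of all genes that did not overlap. An unadjusted p under 0.05 was found for 6 higher and 5 lower members, beside 5.29% and 4.6% of all genes. DESeq2 called 4 higher and 5 lower, beside 0.671% and 0.442% of all genes. The 5 clock genes Nr1d2, Cry1, Dbp, Npas2, and Per2 were among the 10 lowest p-values of the 14016 genes, and the 50 lowest held the same 5. The median size of the log2 fold change was 0.62 over the clock genes and 0.23 over all genes.

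**Figure D2:**
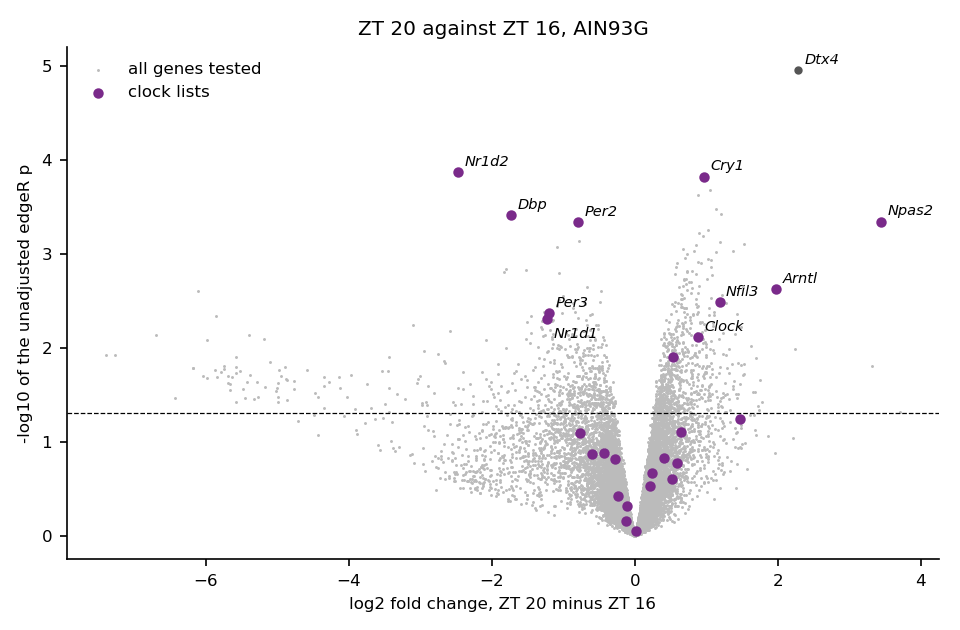
Unadjusted p of edgeR (as -log10) against the log2 fold change, ZT 20 minus ZT 16, for the 14016 genes tested, with the clock lists in purple and the dashed line at the unadjusted threshold of 0.05. Dtx4 has the lowest p, and Nr1d2, Cry1, Dbp, Npas2, and Per2 follow among the lowest 10.

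Of the activators, Arntl, which encodes BMAL1, had 16.4, 5.26, and 9.29 CPM at ZT 16 and 46.6, 43.97, and 31.6 CPM at ZT 20. All ZT 20 libraries lay above all ZT 16 libraries, with ZT 16 replicate 2 lowest, and the log2 fold change was 1.98 ± 0.42 (SE; DESeq2 adjusted p = 0.00176). Npas2 (chr1:39193731-39363236 of mm10, plus strand), a partner of BMAL1 that can replace CLOCK, had 0.454, 1.34, and 1.09 CPM at ZT 16 and 11.5, 14.4, and 5.77 CPM at ZT 20. The groups were far apart, with a log2 fold change of 3.45 ± 0.54 (DESeq2 adjusted p = 1.77e-06). However, Npas2 reached the mean count of 25 only through the ZT 20 libraries. The size of its fold change therefore rests on few counts at ZT 16. Clock, the usual partner, had 44.2, 67.8, and 83.8 CPM at ZT 16 and 113, 119, and 131 CPM at ZT 20. Its log2 fold change of 0.89 ± 0.24 was smaller, without overlap, and was not called by DESeq2 (adjusted p = 0.058).

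Among the repressors, Cry1 and Cry2 were higher and Per2 and Per3 lower at ZT 20. Cry1 (chr10:85131700-85185064 of mm10, minus strand), a late repressor of the clock, had 24.1, 23.7, and 24.99 CPM at ZT 16 and 47.9, 51.0, and 43.4 CPM at ZT 20. Its libraries hardly differed within ZT 16, and the log2 fold change was 0.97 ± 0.13 (DESeq2 adjusted p = 2.06e-06). Cry2 had 85.0, 64.7, and 61.0 CPM at ZT 16 and 93.5, 107, and 106 CPM at ZT 20, which did not overlap, with a log2 fold change of 0.54 ± 0.16.

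Per2 (chr1:91415982-91459324, minus strand), which binds the cryptochromes, had 69.2, 72.4, and 64.5 CPM at ZT 16 and 39.3, 36.4, and 43.5 CPM at ZT 20. All ZT 20 libraries were lower, and the log2 fold change was -0.79 ± 0.12 (DESeq2 adjusted p = 0.000137). Per3 had 69.1, 107, and 109 CPM at ZT 16 and 43.1, 28.3, and 53.2 CPM at ZT 20, with a log2 fold change of -1.20 ± 0.28 (DESeq2 adjusted p = 0.0136). Per1, in contrast, overlapped, at 47.3, 34.5, and 38.4 CPM against 31, 30.7, and 37.6 CPM and a log2 fold change of -0.28 ± 0.17.

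Among the nuclear receptors is the clock gene with the lowest p. Nr1d2 (REV-ERB beta, chr14:18204054-18239127, minus strand), a repressor of Arntl, had 56.9, 92.8, and 85.9 CPM at ZT 16 and 13.2, 9.85, and 19.7 CPM at ZT 20. Every ZT 20 library was far below every ZT 16 library (mean, 0.181 times that at ZT 16; DESeq2 adjusted p = 1.39e-10). Nr1d1 (REV-ERB alpha) had 16.9, 19.8, and 9.86 CPM at ZT 16 and 5.65, 7.33, and 6.95 CPM at ZT 20, again without overlap, with a log2 fold change of -1.22 ± 0.30 (DESeq2 adjusted p = 0.0421). Rora, which opposes them, overlapped with a log2 fold change of 0.21, and Rorb had too few counts to be tested. Of the kinases that mark PER proteins, Csnk1d and Csnk1e had log2 fold changes of 0.016 and -0.11, and Csnk1d was below 0 under library-size scaling, a stricter filter, and a muscle covariate, and without ZT 16 replicate 2 or 3 or ZT 20 replicate 2.

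Outputs of the clock mostly did not differ by the unadjusted p. Of the 12 tested, 1 was higher and 1 lower with an unadjusted p under 0.05, and 10 were neither. These counts lie near the shares of all genes, 5.29% and 4.6%. Dbp (chr7:45705088-45710203, plus strand), an activator at D-boxes, had 38.3, 41.2, and 27.9 CPM at ZT 16 and 11.7, 7.56, and 13.1 CPM at ZT 20. It was lower in all ZT 20 libraries, with a log2 fold change of -1.73 ± 0.26 (DESeq2 adjusted p = 7.73e-06). Nfil3, the repressor at the same element, had 28.04, 18.4, and 14.2 CPM at ZT 16 and 40.2, 48.0, and 50.1 CPM at ZT 20. It was higher in all ZT 20 libraries, with a log2 fold change of 1.19 ± 0.27 (DESeq2 adjusted p = 0.0199). Thus the activator and the repressor of the D-box lay in opposite directions.

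Ciart, a repressor of the BMAL1 pair, had 2.38, 2.46, and 3.55 CPM at ZT 16 and 1.26, 2.11, and 1.57 CPM at ZT 20, which did not overlap, but at this low level the log2 fold change of -0.76 ± 0.37 had an unadjusted p above 0.05. Bhlhe40, a repressor that binds E-boxes, had 156, 36.1, and 42.3 CPM at ZT 16 and 112, 258, and 280 CPM at ZT 20. The groups overlapped through the high ZT 16 replicate 1, and the log2 fold change was 1.47 ± 0.64. The remaining members overlapped, with log2 fold changes of 0.53 for Bhlhe41, 0.24 for Cipc, 0.59 for Klf10, 0.40 for Klf9, -0.42 for Usp2, and -0.60 for Tef. Those of Hlf and Tspan4 were -0.13 and -0.23, but Hlf was above 0 with a lymphocyte covariate and without ZT 20 replicate 1, and Tspan4 was above 0 with a muscle covariate and without ZT 16 replicate 2.

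**Figure D3:**
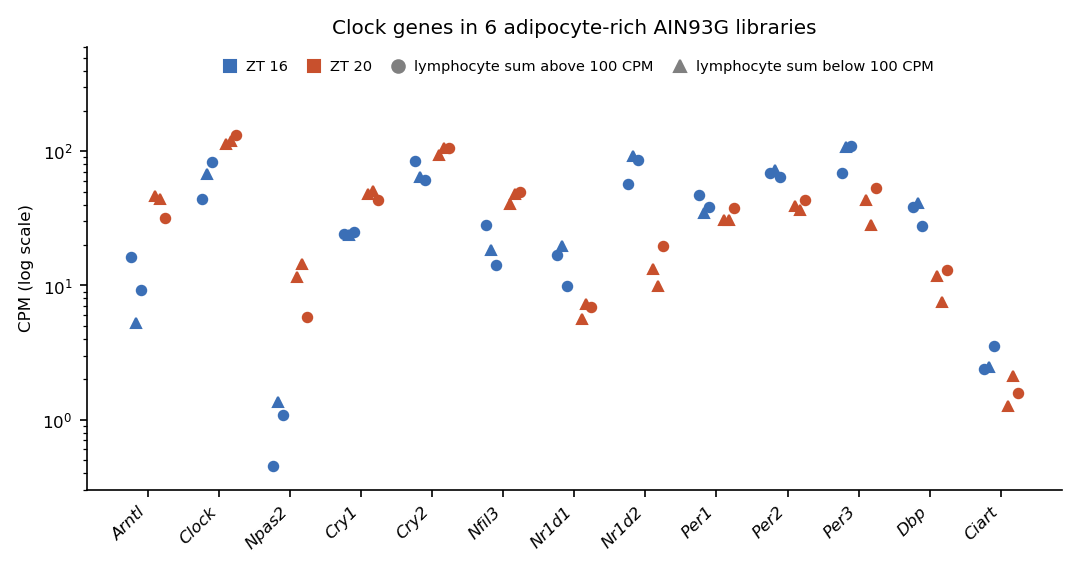
CPM (log axis) of 13 clock genes in the 3 libraries of ZT 16 and the 3 of ZT 20, 1 column per gene. The points of the groups do not overlap for 12 of them, and Per1 is shown as one that overlaps.

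For Arntl, the difference was smaller in the lymphocyte-rich libraries (1.35 on the log2 scale, ZT 20 replicate 3 against ZT 16 replicates 1 and 3) than in the lymphocyte-poor ones (3.08, ZT 20 replicates 1 and 2 against ZT 16 replicate 2). With 1 library on a side, these within-stratum values carry no test. The number of clock genes with an unadjusted p under 0.05 was between 10 and 15 of 26 under the other settings tried. When a library was left out, the log2 fold change of Nr1d2 lay between -2.77 and -2.26, that of Npas2 between 3.10 and 3.74, and that of Nfil3 between 0.95 and 1.49. An adjusted p under 0.05 was given by edgeR to Nr1d2 without a filter on low counts (0.0356) and to Cry1 when the 12 libraries of both diets shared 1 fit (0.0164). The HFD libraries varied less, with a biological coefficient of variation of 0.209 beside 0.365 on AIN93G. The p from the shared fit therefore does not measure the spread of the AIN93G mice alone.

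Lipogenic genes had log2 fold changes above 0 in 22 of 24 cases, but the CPM of 16 overlapped between the time points. Of the 24 genes of de novo lipogenesis, 8 had higher and 0 lower values with an unadjusted p under 0.05 by edgeR, and DESeq2 called 2 higher (Fads1 and Dgat2) and 0 lower, against 5.29% and 0.671% of all genes. The CPM did not overlap in 8, all higher at ZT 20, beside 9.28% of all genes. On library size alone, 21 had a log2 fold change above 0. The median was 0.77 beside 0.0068 over all genes. Their summed level was 76680, 47290, and 74680 CPM at ZT 16 and 133900, 111800, and 113600 CPM at ZT 20, a ratio of means of 1.81 (exact permutation test, p = 0.1). Without ZT 16 replicate 2, the muscle-rich library, the median was 0.57 and 6 genes had an unadjusted p under 0.05. With the muscle level as a covariate, these were 0.39 and 1 gene. The number of genes with an unadjusted p under 0.05 was 15 without ZT 16 replicate 1, 3 without ZT 16 replicate 3, 4 without ZT 20 replicate 1, and 2 without ZT 20 replicate 2. It was 4 when scaled by library size alone and 16 with the lymphocyte level as a covariate.

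Fasn, the fatty acid synthase, had 16610, 3378, and 12830 CPM at ZT 16 and 24940, 28610, and 24140 CPM at ZT 20. The groups did not overlap, but ZT 16 replicate 2 was far below its group, and the log2 fold change of 1.24 ± 0.64 had an unadjusted p above 0.05. Acly, which makes cytosolic acetyl-CoA, had 3836, 561, and 1773 CPM at ZT 16 and 5843, 9453, and 4233 CPM at ZT 20, again lowest in ZT 16 replicate 2 (log2 fold change, 1.66 ± 0.71). Acaca, the acetyl-CoA carboxylase of the committed step, had 2266, 596, and 2050 CPM at ZT 16 and 3893, 4330, and 4021 CPM at ZT 20. It had the same shape, with a log2 fold change of 1.32 ± 0.50. Scd1, the stearoyl-CoA desaturase, overlapped, at 36550, 35490, and 45930 CPM against 77790, 43370, and 62240 CPM (0.64 ± 0.56). When 1 library was left out, the log2 fold change of Fasn lay between 0.78 and 1.67 and that of Acaca between 0.88 and 1.62.

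Thrsp, a lipogenic nuclear protein, had 4744, 1377, and 3150 CPM at ZT 16 and 4949, 7696, and 4425 CPM at ZT 20, which overlapped. Srebf1, the transcription factor that drives the pathway, had 630, 327, and 335 CPM at ZT 16 and 556, 742, and 636 CPM at ZT 20, with a log2 fold change of 0.58 ± 0.30 and overlap through ZT 16 replicate 1. Fads1 and Fads2 are desaturases of polyunsaturated fatty acids. Fads1 had 88.7, 95.2, and 99.9 CPM at ZT 16 and 133, 154, and 177 CPM at ZT 20, and ZT 16 replicate 2 did not stand apart (0.71 ± 0.14; DESeq2 adjusted p = 0.0075). Fads2 had 14.02, 7.37, and 13.1 CPM at ZT 16 and 22.98, 21.1, and 16.9 CPM at ZT 20, without overlap (0.82 ± 0.28).

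Apart from the clock genes and those of the study's PCR assays, the members of lists that are named in the text are the 4 with the highest CPM of a list and others that were chosen after their values were seen. Dgat2, which catalyses the last step of triacylglycerol synthesis, is one of the latter, at 1736, 1185, and 1300 CPM at ZT 16 and 2575, 3218, and 2275 CPM at ZT 20. The groups did not overlap, and the log2 fold change was 0.93 ± 0.26 (DESeq2 adjusted p = 0.0136). Mlxipl, the carbohydrate response factor ChREBP, was likewise higher without overlap, by 1.05 ± 0.35 on the log2 scale. Elovl6 had 98.4 CPM in ZT 16 replicate 2 and at least 632 CPM in every other library.

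The sterol list covers cholesterol synthesis and its control. Of 23 tested, 12 had higher and 0 lower values with an unadjusted p under 0.05, DESeq2 called 4 higher and 0 lower, and 9, all higher, did not overlap. Of all genes, 5.29%, 0.671%, and 9.28% were higher by these rules. All 23 had a log2 fold change above 0 (22 when scaled by library size alone), with a median of 0.86. Their summed level was 2098, 1109, and 1360 CPM at ZT 16 and 2738, 3339, and 2393 CPM at ZT 20, a ratio of means of 1.86 (exact permutation test, p = 0.1). The median was 0.64 and 8 genes had an unadjusted p under 0.05 without ZT 16 replicate 2, and 0.35 and 4 genes with the muscle covariate. That number was 19 without ZT 16 replicate 1, and 6 without ZT 16 replicate 3 or ZT 20 replicate 2.

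Hmgcs1, the synthase at the entry to the mevalonate pathway, had 171, 129, and 159 CPM at ZT 16 and 229, 337, and 269 CPM at ZT 20 (0.86 ± 0.19; DESeq2 adjusted p = 0.0165). Insig1, the sterol-sensing retention factor of the SREBP system, had 564, 185, and 375 CPM at ZT 16 and 737, 790, and 780 CPM at ZT 20. The groups did not overlap, and the log2 fold change was 1.04 ± 0.38. Sc5d had 286, 175, and 143 CPM at ZT 16 and 425, 619, and 278 CPM at ZT 20, which overlapped. Srebf2, the factor that activates these genes, overlapped too, with a log2 fold change of 0.22 ± 0.19.

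Of 22 genes of insulin signaling and glucose use, 6 had higher and 1 lower values with an unadjusted p under 0.05, the CPM did not overlap in 4 and 1, and DESeq2 called 1 (Pik3r1) and 0. Of all genes, 5.29% and 4.6% were higher and lower with an unadjusted p under 0.05, and 16.4% did not overlap in either direction, beside 5 of these 22. The median log2 fold change was 0.17, or 0.0028 when scaled by library size alone. It was 0.075 to 0.26 when 1 library was left out, and 0.37 with the muscle covariate. Pik3r1, the regulatory subunit of PI3-kinase, had 408, 392, and 387 CPM at ZT 16 and 625, 616, and 660 CPM at ZT 20. Replicates were tight at both times, and the log2 fold change was 0.68 ± 0.14 (DESeq2 adjusted p = 2.03e-06). Pfkfb3, which makes the activator of phosphofructokinase, had 363, 462, and 512 CPM at ZT 16 and 593, 702, and 1038 CPM at ZT 20, without overlap (0.80 ± 0.26).

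Slc2a4, the insulin-responsive glucose transporter GLUT4, had 344, 207, and 231 CPM at ZT 16 and 408, 691, and 419 CPM at ZT 20. The groups did not overlap (0.96 ± 0.30). Slc2a1, the basal transporter GLUT1, was the member lower at ZT 20, at 21, 17.5, and 18 CPM against 11.6, 11.7, and 15.1 CPM (-0.56 ± 0.18). Hexokinase 2 (Hk2) had 371, 141, and 200 CPM at ZT 16 and 329, 824, and 902 CPM at ZT 20, with overlap through ZT 20 replicate 1 (1.53 ± 0.50). On this list, 3 to 5 genes had an unadjusted p under 0.05 when 1 library was left out, with 3 without ZT 20 replicate 2, 4 without any 1 of the ZT 16 libraries, and 3 with the muscle covariate.

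**Figure D4:**
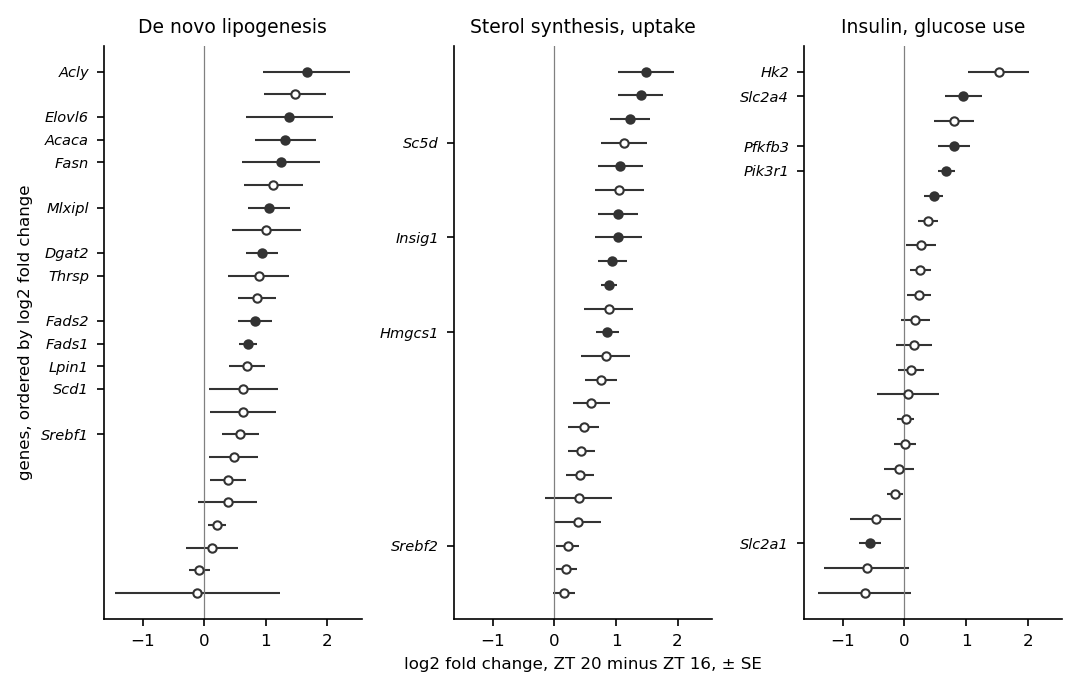
Log2 fold change, ZT 20 minus ZT 16, of each tested member of the lists of lipogenesis, sterol genes, and insulin signaling and glucose use, with bars for the SE and names for those given in the text, where filled points mark genes whose CPM did not overlap between the time points and open points those that overlapped. All 23 sterol genes and 22 of 24 lipogenic genes lie above 0, or 22 and 21 when scaled by library size alone.

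Markers of adipocytes themselves mostly overlapped. Of 20, 2 had higher and 0 lower values with an unadjusted p under 0.05 (Pparg and Slc2a4), beside 5.29% and 4.6% of all genes, and the median log2 fold change was 0.27, or 0.061 without ZT 16 replicate 1, 0.43 without ZT 16 replicate 2, and 0.69 with the muscle covariate. Pparg, the master regulator of adipocytes, had 169, 130, and 164 CPM at ZT 16 and 245, 245, and 233 CPM at ZT 20. It was higher in every ZT 20 library (0.64 ± 0.14; DESeq2 adjusted p = 0.0167). Adipoq had 1326, 2837, and 2169 CPM at ZT 16 and 2854, 2194, and 2265 CPM at ZT 20, which overlapped (0.21 ± 0.33), and its log2 fold change was -0.050 without ZT 16 replicate 1. Lep had 985, 1867, and 403 CPM at ZT 16 and 2058, 2122, and 990 CPM at ZT 20, with overlap (0.67 ± 0.58). The lipase Lpl had 6353, 7722, and 7675 CPM against 11890, 7956, and 12430 CPM, without overlap (0.57 ± 0.35), whereas carbonic anhydrase Car3 and the fatty acid carrier Fabp4 overlapped.

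Of the 19 secreted proteins of adipocytes tested, 1 (Igf1, 0.64 ± 0.22) had a higher value with an unadjusted p under 0.05 and 0 a lower one, where 5.29% of all genes were higher and 4.6% lower, which also holds for the next lists. Cfd, the complement factor adipsin, and Retn, resistin, had log2 fold changes of 0.061 and 0.41 and overlapped. Of 25 genes of lipolysis and the lipid droplet, 3 had higher values (Abhd5 by 0.35, Plin2 by 0.99, and Ptger3 by 0.63) and 1 a lower value with an unadjusted p under 0.05. The triacylglycerol lipase Pnpla2 and the droplet proteins Plin1, Plin4, and Cidec overlapped, at 0.13, 0.32, -0.14, and -0.12. Of 14 genes of fatty acid uptake, 2 had higher values with an unadjusted p under 0.05 (Slc27a4 by 0.53 and Acsl3 by 0.48), and Cd36 had a log2 fold change of 0.35. These 3 lists had medians of 0.12, 0.18, and 0.15, and DESeq2 called 0 of their genes. On library size alone the medians of the secreted proteins and of fatty acid uptake were -0.043 and -0.012. The first was -0.11 without ZT 16 replicate 1 or ZT 20 replicate 1, and that of lipolysis -0.017 without ZT 20 replicate 3.

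Of 12 brown adipocyte genes tested, 1 (the potassium channel Kcnk3, 0.99 ± 0.32) had a higher value with an unadjusted p under 0.05, and Ucp1 varied more between replicates than between time points (0.52 ± 1.31). The 11 tested transcription factors that mark the position of a fat depot had log2 fold changes above 0 (8 of 11 when scaled by library size alone, and Hoxc9 below 0 with the muscle covariate), with a median of 0.34, 2 with an unadjusted p under 0.05, and 1 called by DESeq2. That was Hoxc8, at 62.2, 67.4, and 70.9 CPM at ZT 16 and 105, 86.4, and 103 CPM at ZT 20 (0.55 ± 0.13; DESeq2 adjusted p = 0.0402). Hoxc8 did not overlap, and the other was Shox2 (1.17 ± 0.48), which had 6.72 CPM in ZT 16 replicate 2 and at least 21.2 CPM in the others. Whether the libraries came from the same fat depot was not tested. Hoxa10, Hoxc9, and Hoxc10 had 1.05, 1.11, and 1.23 CPM in that ZT 16 library, and at least 10.4, 12.1, and 17.8 CPM in the others.

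Of 16 glucocorticoid-responsive genes, 1 had a higher and 3 lower values with an unadjusted p under 0.05, beside 5.29% and 4.6% of all genes, and the median was -0.34, or 0.085 with the muscle covariate. The cell cycle inhibitor Cdkn1a had 22.99, 27.9, and 21.7 CPM at ZT 16 and 89.8, 70.4, and 35.2 CPM at ZT 20, without overlap (1.43 ± 0.34; DESeq2 adjusted p = 0.0152). Fkbp5, Mt1, and Ddit4 had log2 fold changes of -0.84, -0.96, and -1.04. Ddit4, an inhibitor of mTORC1, did not overlap, with 27.5, 14.1, and 19.1 CPM against 8.77, 11.1, and 9.64 CPM. Of the genes with the highest CPM, Tsc22d3 overlapped at -0.35.

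Of 24 immediate early genes, 1 had a higher and 4 lower values with an unadjusted p under 0.05 (median, -0.18, or 0.042 without ZT 16 replicate 1). For this and the next lists, the shares of all genes were 5.29% and 4.6%. Fosl2, an AP-1 subunit, had 59.5, 52.4, and 41.3 CPM at ZT 16 and 95.9, 98.9, and 81.9 CPM at ZT 20, without overlap (0.85 ± 0.17; DESeq2 adjusted p = 0.0136). Nr4a1, Myc, Btg2, and Jund had log2 fold changes of -1.27, -0.81, -0.67, and -0.52. Fos overlapped, at 0.047 ± 0.76. Of 24 chaperones, 0 had a higher and 1 (Herpud1, -0.29) a lower value with an unadjusted p under 0.05, with a median of 0.018, which lay below 0 under 7 of 17 alternatives. Of 20 interferon-stimulated genes, 0 had higher and 2 lower values (Mx1, -1.34, and Zbp1, -1.02), and of 24 cell cycle genes 0 and 2 (Mcm3, -0.94, and Pcna, -0.53). The interferon and cell cycle lists had medians of -0.45 each, and that of the interferon list was 0.11 with the muscle covariate and -0.19 and -0.29 without ZT 16 and ZT 20 replicate 2. That of the cell cycle list was -0.27 without ZT 16 replicate 1, -0.13 without ZT 20 replicate 1, and -0.82 without ZT 20 replicate 2. Summed lymphocyte levels, of 49.3 to 2360 CPM at ZT 16 and 30.95 to 732 CPM at ZT 20, were lower on average at ZT 20 as well. With the lymphocyte level as a covariate, the median was -0.60 for the interferon list and -0.40 for the cell cycle list.

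Lists of other cell types are given with the same counts. All 28 lymphocyte genes had a log2 fold change below 0, with a median of -2.26, but 0 had an unadjusted p under 0.05 by edgeR or were called by DESeq2, and the replicates spread widely. Of 14 skeletal muscle genes, 0 had higher and 13 lower values with an unadjusted p under 0.05 (5.29% and 4.6% of all genes), with a median of -5.00, and DESeq2 called 1 lower (Tnnt3). Without ZT 16 replicate 2 the median was -1.86 and 2 genes had an unadjusted p under 0.05, and without ZT 20 replicate 1 or 2 that number was 1. Acta1, skeletal actin, had 29.2, 1104, and 76.7 CPM at ZT 16 and 17.3, 10.6, and 66.4 CPM at ZT 20. Here ZT 16 replicate 2 was far above the other libraries, which overlapped.

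Of 15 endothelial genes, 4 had higher and 0 lower values with an unadjusted p under 0.05, and DESeq2 called 1. Of all genes, 5.29% were higher and 4.6% lower by the first rule, and DESeq2 called 0.671% higher. The gene called was Kdr, the VEGF receptor, at 62.4, 56.8, and 59.2 CPM at ZT 16 and 96.5, 78.7, and 108 CPM at ZT 20 (0.67 ± 0.14; DESeq2 adjusted p = 0.0342). The other 3 were Cdh5, Flt1, and Tek, while the median of the list was 0.15, or -0.014 on library size alone. Of 18 fibroblast genes, 1 was higher (Dcn, 0.55) and 1 lower (Thy1, -0.87) with an unadjusted p under 0.05. Of 18 macrophage genes, 1 was lower (Ctss, -0.74). The lists of simple epithelium, basal cells, mast cells, lymph node stroma, keratinocytes, erythrocytes, mesothelium, hepatocytes, and other organs had 0 genes with an unadjusted p under 0.05 by edgeR and 0 called by DESeq2. Krt8 and Krt18, keratins of simple epithelium, had log2 fold changes of -0.021 ± 0.70 and -0.10 ± 0.70.

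The gene with the lowest p was on no list. Dtx4, an E3 ubiquitin ligase (chr19:12466341-12501996 of mm10, minus strand), had 29.7, 24.3, and 23.4 CPM at ZT 16 and 123, 153, and 101 CPM at ZT 20. Every ZT 20 library was far above every ZT 16 library, with a log2 fold change of 2.29 ± 0.20 (edgeR adjusted p = 0.157; DESeq2 adjusted p = 1.18e-18). The adjusted p of edgeR was 0.00637 without a filter on low counts and 0.00652 in the fit with both diets, which also took in the less variable HFD libraries. In the HFD libraries, Dtx4 had 12.9, 8.12, and 14.02 CPM at ZT 16 and 19.5, 25.1, and 28.2 CPM at ZT 20, also without overlap (1.05 ± 0.22).

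Of the 20 genes with the lowest p, 15 were no clock genes, of which 13 were higher and 2 lower at ZT 20. The lower ones were Ypel3, with 92.2, 87.0, and 91.4 CPM at ZT 16 and 58.5, 44.96, and 54.4 CPM at ZT 20 (-0.78 ± 0.13; DESeq2 adjusted p = 0.000705), and Eps8l1, with 35.2, 25.2, and 35.9 CPM against 14.3, 14.2, and 16.7 CPM (-1.09 ± 0.19; DESeq2 adjusted p = 0.000959). Of the higher ones, 4 are given here, chosen after their values were seen. Tshr, the receptor for thyrotropin, had 36.8, 61.0, and 39.1 CPM at ZT 16 and 151, 146, and 97.5 CPM at ZT 20 (1.53 ± 0.26; DESeq2 adjusted p = 0.00012). Klb, the co-receptor for FGF21, had 30.2, 36.8, and 44.1 CPM at ZT 16 and 78.0, 79.3, and 99.0 CPM at ZT 20 (1.21 ± 0.18; DESeq2 adjusted p = 2.14e-05). Ppp1r3d, a subunit that directs protein phosphatase 1 to glycogen, had a log2 fold change of 1.05 ± 0.14, and Itga11, a collagen-binding integrin, of 1.13 ± 0.17. Klb in the HFD libraries overlapped, at 0.073 ± 0.19.

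In the HFD libraries of ZT 16 and ZT 20, which were hepatocyte-rich, 12004 genes were tested and edgeR called 4 higher (Loxl4, Ppard, Npas2, and Ndrg1, or 0.0333%) and 0 lower, with an unadjusted p under 0.05 for 496 higher and 431 lower genes (4.13% and 3.59%, together 7.72%). DESeq2 called 63 higher and 41 lower there (0.525% and 0.342%, together 0.866%), and of all genes tested there, 7.16% were higher and 5.91% lower without overlap of the CPM. The summed lymphocyte level was at most 43.4 CPM there. Diet and tissue cannot be told apart between these and the adipocyte-rich libraries. The 2 comparisons shared no library. Of the clock genes, 14 core and 11 output members were tested in both.

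On the HFD, 4 of the 14 core clock genes had higher and 5 lower values with an unadjusted p under 0.05, beside 4.13% and 3.59% of all genes. Of the 11 output genes, 2 had higher and 8 lower values, with a median of -0.55. In the adipocyte-rich libraries 1 of 12 was higher and 1 lower, beside 5.29% and 4.6% of all genes, with a median of 0.056. The difference between these counts was not tested. The median in the adipocyte-rich libraries lay between -0.12 and 0.24 under the alternatives. It was below 0 on library size alone and without ZT 20 replicate 3. Npas2 had 0.597, 0, and 0.306 CPM at ZT 16 and 9.73, 12.0, and 12.6 CPM at ZT 20 in the HFD libraries, with an edgeR adjusted p of 0.0081 and a fitted log2 fold change of 5.13, beside 3.45 in the adipocyte-rich libraries. On both diets Npas2 passed the count filter only through ZT 20, and its fold changes rest on few counts at ZT 16. Arntl had 19.9, 23.1, and 26.3 CPM at ZT 16 and 41.4, 41.8, and 39.8 CPM at ZT 20, without overlap (0.83 ± 0.14). Nr1d2 had 37.1, 85.5, and 34.1 CPM at ZT 16 and 10.8, 14.7, and 12.6 CPM at ZT 20 (-2.04 ± 0.33). Per2, Per3, Nr1d1, and Dbp lay below 0 as well, with log2 fold changes of -0.97, -1.37, -1.37, and -0.98 there, and -0.79, -1.20, -1.22, and -1.73 in the adipocyte-rich libraries.

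The difference between the comparisons was tested as an interaction term of diet and time point in 11130 genes. No gene reached an adjusted p under 0.05 with edgeR (0%), 984 had an unadjusted p under 0.05 (8.84%, 4.91% larger and 3.94% smaller on the HFD), and DESeq2 called 63 (0.566%, 0.243% larger and 0.323% smaller). Of the clock genes, Cry2 had 49.5, 51.0, and 51.4 CPM at ZT 16 and 47.2, 43.5, and 45.3 CPM at ZT 20 on the HFD. It was lower there and higher in the adipocyte-rich libraries (HFD minus AIN93G, -0.65 ± 0.20). Bhlhe40 (-1.97 ± 0.68), Cry1 (-0.47 ± 0.16), Cipc (-0.64 ± 0.23), Arntl (-1.11 ± 0.43), Nfil3 (-0.74), Klf10 (-1.06), and Per1 (-0.61) also had an unadjusted interaction p under 0.05, so that 8 of 25 clock genes did, beside the 8.84% of all genes. DESeq2 called 0 of these 8. Without ZT 16 replicate 1 of AIN93G, the interaction of Bhlhe40 was -3.016, with an edgeR adjusted p of 0.04155.

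**Figure D5:**
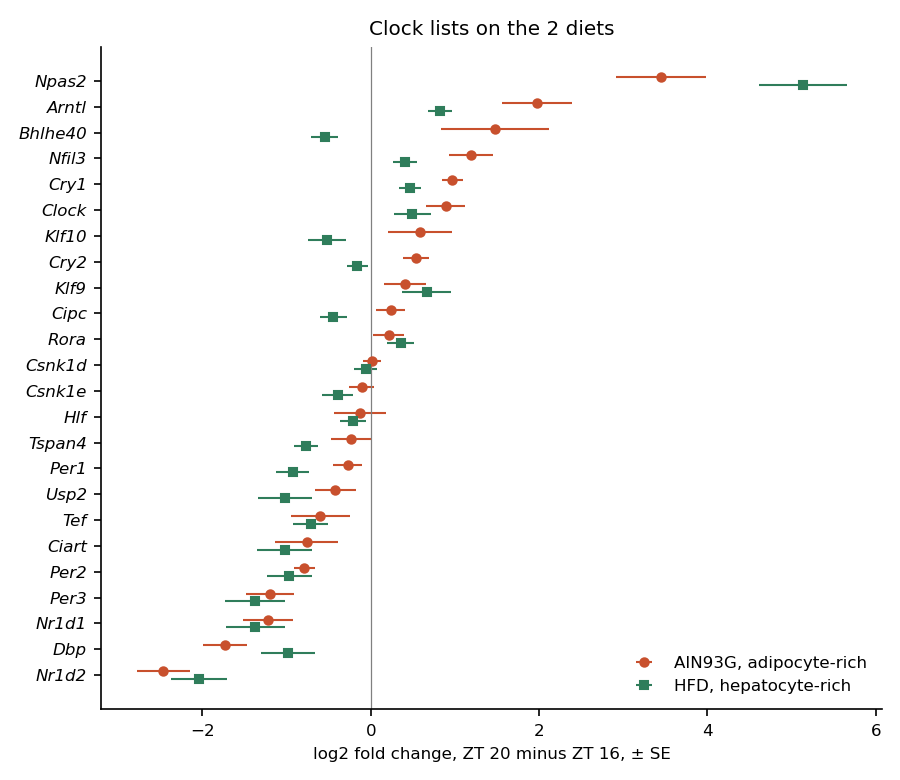
Log2 fold change, ZT 20 minus ZT 16, with its SE, for 24 of the 25 clock genes tested on both diets. Circles are the adipocyte-rich AIN93G libraries and squares the hepatocyte-rich HFD libraries, and the values of 5 genes drawn lie on opposite sides of 0: Bhlhe40 (1.47 and -0.55), Klf10 (0.59 and -0.51), Cry2 (0.54 and -0.16), Cipc (0.24 and -0.44), and Csnk1d (0.016 and -0.058).

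Metabolic lists had other medians in the HFD libraries. The lipogenic list had a median log2 fold change of -0.46 there, beside 0.77 in the adipocyte-rich libraries, and 12 of its 24 genes had an unadjusted interaction p under 0.05, beside 8.84% of all genes. Fasn had 3564, 805, and 797 CPM at ZT 16 and 1107, 542, and 513 CPM at ZT 20 on the HFD, and its interaction was -2.46 ± 0.92 on the log2 scale. Dgat2 had an interaction of -1.15 ± 0.30 (DESeq2 adjusted p = 0.0091). Lpin1, a phosphatidate phosphatase, had an interaction of -2.47 ± 0.49 (DESeq2 adjusted p = 0.0004).

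The sterol list had a median of 0.0015 in the HFD libraries, with an unadjusted interaction p under 0.05 in 6 of 23 genes. For the genes of insulin signaling and glucose use, the median was -0.049 and 7 of 22 had an unadjusted interaction p under 0.05, where the share of all genes was 8.84% for both lists. Pik3r1 had 127, 124, and 94.9 CPM at ZT 16 and 123, 102, and 65.7 CPM at ZT 20 on the HFD, which overlapped, with an interaction of -0.89 ± 0.29.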

How the data were processed

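Read counts per gene were deposited by the authors in 1 table for the 42 libraries, without normalization, and the unit of all values used here is the count. Per the labels and the submitters' processing notes, poly(A) libraries were sequenced as paired ends, and the notes name fastp, STAR, HTSeq 0.6.1, DESeq, STAR-Fusion, and mm10. A strand setting for counting is not given in the sources used here, so that reads of a gene and an antisense partner cannot be told apart.

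Total counts of the 6 libraries ranged from 16063034 to 21368409 and those of the 6 HFD libraries from 14592481 to 19815356, where 3 counts, the floor of detection, correspond to 0.1703 CPM in ZT 16 replicate 1. Intervals and floors of this kind cover counting error only. No pair of replicates agreed within sampling noise (chi-square divided by its degrees of freedom, at least 44.88).

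In R 4.3.3, genes whose counts averaged 25 or more in the 6 libraries of a comparison were tested by quasi-likelihood in edgeR 4.0.16 (F-test, TMM normalization), with Benjamini-Hochberg adjustment over all genes and a threshold of 0.05. The interaction of diet with time point was fitted over 12 libraries. The SE is the log2 fold change divided by the square root of F. Log2 differences within lymphocyte-rich and lymphocyte-poor libraries (split at a summed lymphocyte level of 100 CPM) used a prior of 0.1 CPM. Summed levels of lists were compared with a two-sided exact permutation test. DESeq2 1.42.0, other scalings and filters, covariates for lymphocyte, epithelial, or muscle levels, robust dispersion, the fit of both diets, and leaving out each library were tried as alternatives, of which the muscle covariate, the lymphocyte strata, and the adipocyte sum without Fasn were chosen after seeing the data. The edgeR and DESeq2 tests were tested on simulated data.

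Groups were taken from the labels, and replicates were numbered in the order of their records. The libraries and the 30 lists of 509 gene symbols were chosen with earlier results of these data known. Named genes were all clock genes, the genes of the study's PCR assays, Adipoq, Lep, Fasn, and of each other list the members past the threshold and up to 4 with the highest CPM. Promoter windows are from RefSeq (GRCm38.p6). The PCR measurements were not used here, and some list members count in the lists but are not reported here by name.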

Additional observations from a re-analysis of the deposited data

Results flagged for a closer look

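In 5 genes of the lists, all 3 libraries of ZT 20 lay on one side of all 3 of ZT 16 in the adipocyte-rich libraries and on the other side in the HFD libraries. The interaction of diet with time point, as the log2 fold change on the HFD minus that on AIN93G, was -0.65 for Cry2, -4.60 for the glucose transporter Slc2a4, -0.98 for the monoacylglycerol lipase Mgll, -1.89 for Pfkfb3, and -1.18 for the chaperone Hspa8. They were found among 310 list genes tested on both diets (1.61%), and 101 of all 11130 genes tested on both (0.908%) had this pattern. Because they were picked for it, their interaction values are a description, and the difference was not tested on other samples. Slc2a4 had 6.30, 2.01, and 0.51 CPM at ZT 16 and 0.358, 0.297, and 0 CPM at ZT 20 on the HFD, so that its value there rests on few counts. Pfkfb3 had 7.71, 9.79, and 13.9 CPM at ZT 16 and 5.43, 4.87, and 4.00 CPM at ZT 20 on the HFD. Hspa8 had 2281, 2334, and 2305 CPM at ZT 16 and 1549, 1277, and 1231 CPM at ZT 20 on the HFD, and 1808, 1920, and 1657 CPM against 1953, 3044, and 2352 CPM in the adipocyte-rich libraries. Diet and tissue cannot be told apart in these differences.

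Of the libraries outside both comparisons, 4 held Adipoq over 1000 CPM when all 42 were scaled together, all from ZT 24. They were 2 AIN93G libraries, with 1371 and 1907 CPM, and 2 HFD libraries, with 1338 and 1528 CPM, whose Alb lay between 11.74 and 67.01 CPM. All other libraries outside the 6 had at most 5.589 CPM of Adipoq.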

How the results depend on the processing

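With edgeR, 0 genes were called between ZT 20 and ZT 16 on AIN93G, and this held under all alternatives except 3. DESeq2 called 94 higher and 62 lower, dropping the filter on low counts called 1 higher (Dtx4) and 1 lower (Nr1d2), and the fit with both diets called 3 higher (Dtx4, Cry1, and Dclk3). That last fit also took in the HFD libraries, which varied less. Leaving out 1 library gave 0 calls each time and between 769 (without ZT 16 replicate 3) and 2194 (without ZT 16 replicate 2) genes with an unadjusted p under 0.05, beside 1387 with all 6. When only library size was used for scaling, the median over all genes was -0.16 instead of 0.0068 (log2), so that every value is lower by about that shift. On the HFD, DESeq2 called 63 higher and 41 lower, and leaving out 1 library gave 1 to 11 higher and 0 to 4 lower. For the interaction, DESeq2 called 27 larger and 36 smaller on the HFD, library size alone 2 larger (Ppard and Loxl4), and leaving out 1 library 0 to 1 larger and 0 to 3 smaller.

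On library size alone, the genes with a log2 fold change above 0 were 11 instead of 16 of 22 on the insulin list and 8 instead of 11 on the list of depot factors. Alternatives were followed gene by gene for the clock genes, those of the PCR assays, list genes with an unadjusted p under 0.05 or without overlap, and a few others, of which 9 turned direction. Csnk1d had log2 fold changes of -0.15 on library size alone, -0.024 with at least 25 counts in every library, -0.048 with the muscle covariate, and -0.067 to 0.046 when 1 library was left out. Hlf had 0.12 with the lymphocyte covariate and -0.47 to 0.13 with 1 library left out, and Tspan4 0.24 with the muscle covariate and -0.39 to 0.072 with 1 library left out. Adipoq lay between -0.050 and 0.45 with 1 library left out. With the muscle covariate, Acta1 had 0.47, Myh1 0.20, Actn3 0.67, Pvalb 0.35, and Hoxc9 -0.14. The log2 ratio of the summed levels, ZT 20 to ZT 16, was 0.30 for adipocyte genes and -0.027 for mast cell genes on library size alone, and 0.19 for adipocyte genes without Fasn, a choice made after seeing the data. With 1 library left out it lay between -5.04 and -1.23 for lymphocyte genes and between -6.04 and -1.65 for skeletal muscle genes. Medians of most lists turned direction under 1 or more of the alternatives. Those of the lipogenic, sterol, insulin, adipocyte, cell cycle, depot factor, fibroblast, keratinocyte, and skeletal muscle lists did not. The lymph node stroma median was 0.55 instead of -1.03 with the lymphocyte covariate. For macrophages it was 0.49 instead of -0.14 with the muscle covariate, and for the clock core -0.053 instead of 0.11 on library size alone. With the muscle covariate the interferon median was 0.11 and the glucocorticoid median 0.085, and the lymphocyte median was 0.41 with the lymphocyte covariate. The cause of these differences was not tested.

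No paired analysis was possible because the groups compared share too few numbers. The titles hold a pair of numbers whose meaning the labels do not give, and the first of them is shared by 1 library of ZT 16 and 1 of ZT 20 on each diet (on AIN93G, ZT 16 replicate 2 and ZT 20 replicate 3). The second number is 3 in all libraries of ZT 16 and in none of ZT 20 on AIN93G, so that whatever it marks cannot be told apart from the time point there. The replicate numbers used here only name libraries. With 3 mice a group, the spread between libraries limits the tests, and genes under a mean count of 25 were not tested.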
